A study of Mus musculus with 6 samples.

Results

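Amino acids enter and leave mammalian cells through carriers of the solute carrier (SLC) families, and 10 genes for such carriers and their partner chain were examined here in MLE12 cells, a mouse line of immortalized lung epithelium. The genes were *Slc3a2*, *Slc7a5*, *Slc7a11*, *Slc7a1*, *Slc7a3*, *Slc38a1*, *Slc38a2*, *Slc1a4*, *Slc1a5* and *Slc6a9*, chosen by name from the 54532 genes of the deposited count table, and all 10 were found. RNA-seq was performed on 2 groups of 3 samples. The control group (Ctrl shRNA) received a lentivirus that the sample labels describe as an empty vector, at an MOI (infectious particles added per cell) of 50. The other group received the lentiviruses for Idh3α shRNA and Slc25a1 shRNA together, each at an MOI of 50, and is called knockdown below. The knockdown cells thus were given 2 kinds of virus and a larger total dose, and the dose and the knockdown cannot be told apart in this design. Virus was washed off both groups at 16 h, and culture went on for 80 h more. The labels give the strain as C57BL/6J for all samples, and no source states whether the 3 samples of a group were separate cultures, so the p-values measure the spread between these samples only, which may be technical. The targets were the catalytic subunit of the mitochondrial NAD-dependent isocitrate dehydrogenase (*Idh3a*) and the mitochondrial citrate carrier (*Slc25a1*). The comparison asks how mRNA levels differ when shRNAs against both genes are given.

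Most of these carriers exchange an amino acid for another or couple uptake to sodium, so they work as a network. In it, carriers of the SLC38 family build up glutamine and small neutral amino acids. Exchangers of the SLC1 and SLC7 families then trade these for other amino acids, among them essential ones. Several SLC7 proteins reach the plasma membrane only as light chains bound to a shared heavy chain, the product of *Slc3a2* (4F2hc or CD98). Amino acid shortage and other stresses raise the translation of the transcription factor ATF4, and many genes of this network are known ATF4 targets. ATF4 binds with C/EBP proteins to a composite element whose core reads TGATGNAA, where N is any base. In epithelial cells the light chains bring in leucine for protein synthesis and cystine for glutathione synthesis.

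The element was searched for, on both strands, in a set of promoter windows, the 250 bases before transcription starts in RefSeq (GRCm38.p6). The set covered 10450 of the 15307 genes tested for expression. Promoter entries were present for 6 of the 10 genes, with 9 windows in all. *Slc7a5*, *Slc7a3*, *Slc38a1* and *Slc1a5* have no window in the set used, so their promoters were not searched. *Slc7a11* held the element at 2 places, starting 66 and 47 bases before the start and on opposite strands. Of all 32851 windows of this length, 1134 (3.45%) held the element at least once and 13 (0.0396%) held it at least 2 times. The windows of *Slc3a2*, *Slc7a1*, *Slc38a2*, *Slc1a4* and *Slc6a9* held no match, which says only that these letters are not in these windows. The windows of *Slc7a11* and *Slc3a2* are shown because their proteins form 1 transporter, and the element was found in the former window only. Both read 5′ to 3′ along the gene and end 1 base before the start of a RefSeq transcript, at chr3:50443614-50443863 on the minus strand for *Slc7a11* and at chr19:8713898-8714147 on the minus strand for *Slc3a2*. The *Slc3a2* window lies inside the gene as the count table gives it (8706882 to 8723369), so it precedes an internal start, and the bases before the outer end of that gene were not searched. Capitals mark the element.
Slc7a11 promoter: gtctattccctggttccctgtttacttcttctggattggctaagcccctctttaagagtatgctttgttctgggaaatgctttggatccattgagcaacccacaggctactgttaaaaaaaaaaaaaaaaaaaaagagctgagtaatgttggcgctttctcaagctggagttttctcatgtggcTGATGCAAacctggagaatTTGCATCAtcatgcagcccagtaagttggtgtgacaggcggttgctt
Slc3a2 promoter: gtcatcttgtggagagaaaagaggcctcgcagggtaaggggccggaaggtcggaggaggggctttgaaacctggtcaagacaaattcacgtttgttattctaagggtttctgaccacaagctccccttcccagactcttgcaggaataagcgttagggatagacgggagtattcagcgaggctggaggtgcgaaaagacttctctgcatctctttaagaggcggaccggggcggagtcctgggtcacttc

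The 6 libraries held 27273502 to 28535653 counts each. Ctrl shRNA replicate 2 stood apart, with 16681 genes detected against 19902 to 23147 in the other 5 libraries and 6.49% of its counts on mitochondrially encoded genes against 1.57% to 1.80%. Its 10 transporter genes held 0.0668% of the counts, against 0.106% to 0.117% in the others, so the tests below are given with and without it. The knockdown was checked on its targets. *Idh3a* stood at 79.8, 137 and 93.0 CPM (counts relative to the library total, scaled by TMM factors) in the control samples against 58.5, 57.9 and 55.5 CPM in the knockdown samples, and *Slc25a1* at 103, 98.7 and 108 CPM against 68.9, 69.6 and 63.0 CPM. Neither passed the adjusted edgeR threshold with all samples, and both did without Ctrl shRNA replicate 2. The labelled lung epithelial identity was set against 12 markers, 9 of which had at least 10 counts in every library, among them *Cdh1* and *Krt8*, while the surfactant genes *Sftpa1* and *Sftpd* had at most 3 counts in any. The 12 summed to 1609 to 1732 CPM in the controls and 1682 to 1806 CPM in the knockdown samples, with *Krt19* the largest part. That sum covered markers that lay apart in opposite directions. Over all genes tested, the groups lay apart in CPM for 25.4% (10.7% lower and 14.7% higher in the knockdown). The alveolar type 2 marker *Sftpc* was at 44.1, 97.3 and 50.9 CPM in the controls and 35.9, 28.5 and 27.2 CPM in the knockdown samples, and the lung transcription factor gene *Nkx2-1* at 324 to 343 against 277 to 302 CPM. *Epcam* was also lower throughout, though its groups nearly met, at 3.24 to 4.01 against 2.39 to 3.20 CPM. *Etv5*, another transcription factor gene of these cells, was higher in the knockdown, at 36.5 to 39.5 against 23.1 to 27.6 CPM, as was *Cdh1*, at 75.7 to 83.8 against 68.4 to 74.9 CPM. Of 10 markers of endothelial cells, leukocytes and mesenchymal cells, *Cdh5*, *Ptprc*, *Adgre1* and *Acta2* had at most 3 counts everywhere, and *Dcn*, *Col1a1*, *Cd68* and *Pdgfra* had at least 10 in every library. *Cd68* lay between 1.65 and 1.92 CPM in the controls and between 2.34 and 2.73 CPM in the knockdown samples, and *Pdgfra* between 2.23 and 2.68 and between 3.43 and 3.91 CPM. These 10 summed to 348 to 1235 CPM in the controls and 320 to 347 CPM in the knockdown samples. The highest sum was that of Ctrl shRNA replicate 2 and came from *Dcn*, without which the ranges were 24.4 to 27.4 and 22.9 to 29.5 CPM. The part of these marker differences in the results below was not tested.

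Across the 10 genes, the mRNA of *Slc7a5* showed the clearest difference, with about 29% less in the knockdown samples, and *Slc3a2* was lower by about 14%. The remaining 8 had mean differences of both signs. With all 6 samples no member passed an adjusted p of 0.05 in either direction (edgeR's quasi-likelihood test, Benjamini-Hochberg adjusted over 15307 genes). Of all genes tested, 0.0588% were higher and 0.00653% lower by that rule. At an unadjusted p under 0.05, 2 of the 10 genes were lower (*Slc7a5* and *Slc3a2*) and 0 higher, beside 6.65% lower and 7.47% higher of all genes tested. Without Ctrl shRNA replicate 2, *Slc7a5* fell past the adjusted threshold and no other member did, beside 0.675% of 15709 genes lower and 1.11% higher. With DESeq2 and all samples *Slc7a5* was again the 1 member called, lower, beside 0.958% of genes lower and 1.55% higher. With DESeq2 and without that library, 2 members were called lower (*Slc7a5* and *Slc3a2*) and 0 higher, beside 2.65% and 3.93% of all genes. With limma's sample quality weights 2 were called lower (*Slc7a5* and *Slc3a2*) and 1 higher (*Slc38a2*), where 6.34% of all genes were lower and 8.67% higher. The median log2 fold change of the 10 genes was 0.04 with all samples and 0.01 without Ctrl shRNA replicate 2, against -0.01 and -0.02 over all genes tested, and it was 0.14 without Ctrl shRNA replicate 1. The groups were fully apart in CPM for 4 of the 10 genes, of which *Slc7a5* and *Slc3a2* were lower and *Slc38a2* and *Slc1a5* higher, and 25.4% of all genes tested showed such a separation (10.7% lower and 14.7% higher). When the other 5 libraries were scaled without Ctrl shRNA replicate 2, *Slc1a5* overlapped and *Slc7a3* was apart in its place, so that 2 members were lower and 2 higher, beside 18.8% and 19.0% of all genes.

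**Figure D1:**
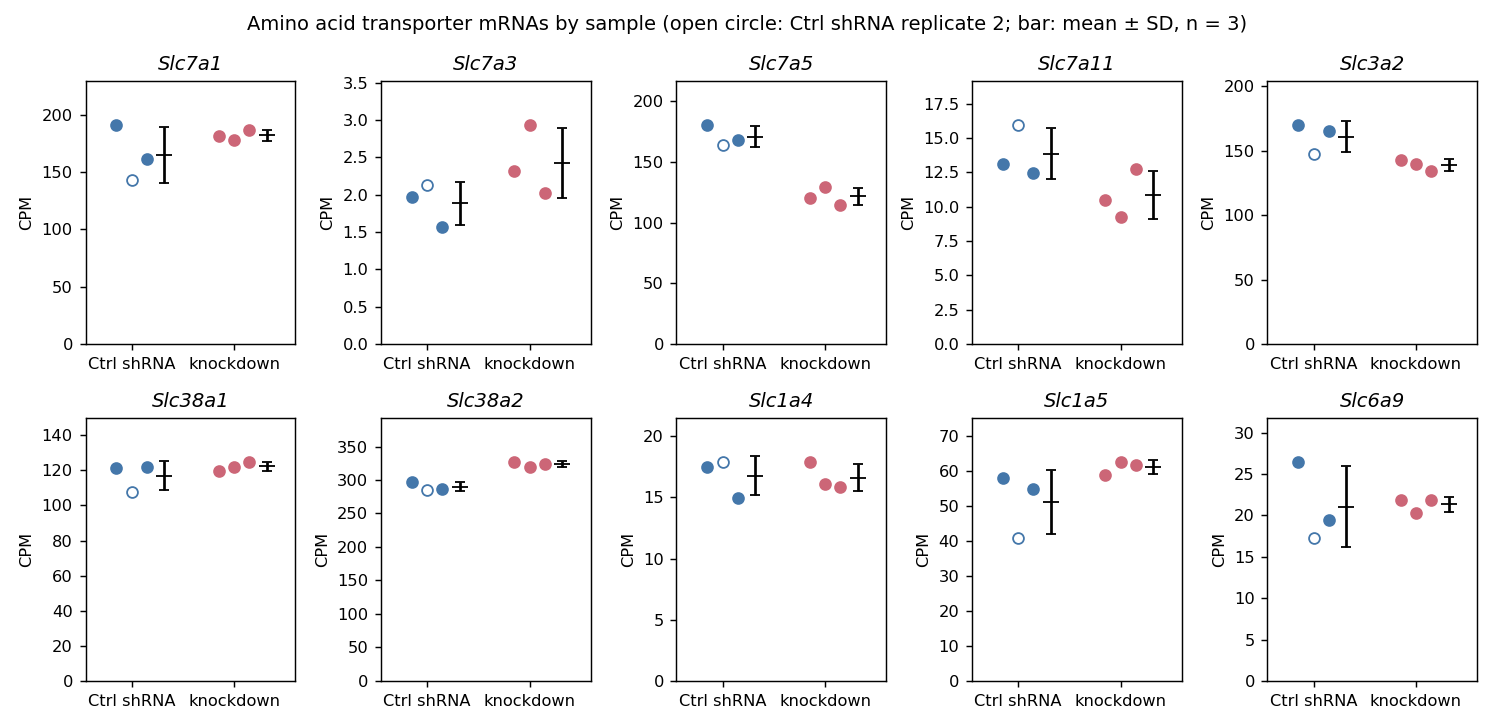
TMM-scaled CPM (y axis from 0) of each of the 10 transporter genes in the 3 Ctrl shRNA and 3 knockdown samples, with each point a sample, the open circle Ctrl shRNA replicate 2 and the bar the mean ± SD (n = 3). *Slc7a5* lies between 163 and 180 CPM in the controls and between 115 and 129 CPM in the knockdown samples, while most other panels overlap.

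*Slc3a2* (ENSMUSG00000010095, chromosome 19 of GRCm38, 8706882 to 8723369) encodes the heavy chain. It measured 170, 147 and 165 CPM in Ctrl shRNA replicates 1, 2 and 3 and 143, 139 and 134 CPM in the knockdown replicates. Every knockdown sample was below every control, the lowest of which was Ctrl shRNA replicate 2 (exact permutation test over samples, two-sided, p = 0.1, below which 3 against 3 cannot go). The mean was 161 ± 11.98 CPM in the controls and 139 ± 4.33 CPM in the knockdown (SD, n = 3 each). The log2 fold change was -0.21 (standard error 0.08, 95% interval -0.41 to -0.01, edgeR adjusted p = 0.352). Without Ctrl shRNA replicate 2 it was -0.28 (95% interval -0.43 to -0.14, edgeR adjusted p = 0.0717), and over 17 alternatives the adjusted p ran from 0.0102 to 0.932. The gene was thus lower in each knockdown sample but did not pass the edgeR threshold with or without that library. In RNA of whole cultures, fewer cells with an mRNA and less of it per cell cannot be told apart, here and for the genes below.

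*Slc7a5* (ENSMUSG00000040010, chromosome 8, 121881150 to 121907694) encodes LAT1, the light chain that exchanges glutamine for leucine and other large neutral amino acids. It measured 180, 163 and 168 CPM in the controls and 121, 129 and 115 CPM in the knockdown samples. The groups were separated by a wide gap between 129 and 163 CPM, and Ctrl shRNA replicate 2 lay close to the other controls. The mean was 171 ± 8.74 CPM in the controls and 121 ± 7.38 CPM in the knockdown (SD, n = 3 each). This gave a log2 fold change of -0.49 (standard error 0.08, 95% interval -0.69 to -0.29). The unadjusted p was 0.000818 and the adjusted p 0.178 in edgeR with all samples. Without Ctrl shRNA replicate 2 the log2 fold change was -0.53 (95% interval -0.70 to -0.36, edgeR adjusted p = 0.0155), so leaving out that library changed the call with little change of the estimate. DESeq2 with all samples gave an adjusted p of 0.00160, and over the 17 alternatives the adjusted p ran from 3.52e-07 to 0.698.

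*Slc7a11* (ENSMUSG00000027737, chromosome 3, 49892526 to 50443614) encodes xCT, the light chain that imports cystine in exchange for glutamate. It measured 13.1, 15.9 and 12.48 CPM in the controls and 10.5, 9.26 and 12.7 CPM in the knockdown samples. The groups overlapped, with knockdown replicate 3 above Ctrl shRNA replicate 3. The log2 fold change was -0.35 with a wide 95% interval of -0.75 to 0.05 (edgeR adjusted p = 0.367), and without Ctrl shRNA replicate 2, its highest control, -0.25 (edgeR adjusted p = 0.369). Thus the gene with the element at both places in its promoter window was not called, and at its 281 to 406 counts per library the interval includes both 0 and the value of *Slc7a5*.

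The cationic amino acid carriers work without a heavy chain and import arginine and lysine. *Slc7a1* (CAT1; ENSMUSG00000041313, chromosome 5, 148327410 to 148399904) measured 191, 143 and 162 CPM in the controls and 181, 178 and 187 CPM in the knockdown samples. Its knockdown samples lay within the range of the controls, whose spread was set by Ctrl shRNA replicates 1 and 2. The log2 fold change was 0.14 (95% interval -0.14 to 0.42, edgeR adjusted p = 0.549), 0.04 without Ctrl shRNA replicate 2 (edgeR adjusted p = 0.852) and 0.26 without Ctrl shRNA replicate 1. *Slc7a3* (CAT3; ENSMUSG00000031297, X chromosome, 101079210 to 101086020) was the scarcest member, with 61, 42 and 45 counts in the controls and 69, 89 and 60 counts in the knockdown samples. On the CPM scale the groups overlapped, at 1.97, 2.13 and 1.57 against 2.32, 2.93 and 2.02 CPM. Its log2 fold change of 0.36 came with a 95% interval of -0.24 to 0.96 (edgeR adjusted p = 0.470), and was 0.44 without Ctrl shRNA replicate 2 (edgeR adjusted p = 0.361). Single libraries moved it from 0.21, without knockdown replicate 2, to 0.48, without knockdown replicate 3, and it was 0.23 without Ctrl shRNA replicate 3.

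The SLC38 carriers take up glutamine and alanine with sodium. *Slc38a2* (SNAT2; ENSMUSG00000022462, chromosome 15, 96687392 to 96699730), known as the member of the family that cells induce when amino acids run short, was the most counted of the 10 genes. It measured 297, 285 and 286 CPM in the controls and 327, 320 and 324 CPM in the knockdown samples. The groups did not overlap and both were narrow, at 290 ± 6.77 and 324 ± 3.87 CPM (SD, n = 3 each). The log2 fold change was 0.16 (95% interval -0.02 to 0.34, edgeR adjusted p = 0.364), and 0.14 without Ctrl shRNA replicate 2 (edgeR adjusted p = 0.273). Limma's sample quality weights, which gave that library a weight of 0.101, were the 1 alternative that called it (log2 fold change 0.17, limma adjusted p = 0.0330), and over all 17 the adjusted p ran from 0.0330 to 0.694. *Slc38a1* (SNAT1; ENSMUSG00000023169, chromosome 15, 96571418 to 96642913), which lies near *Slc38a2*, measured 121, 108 and 122 CPM in the controls and 120, 122 and 125 CPM in the knockdown samples. Apart from Ctrl shRNA replicate 2, the lowest, the samples spanned no more than 120 to 125 CPM. Its log2 fold change was 0.06 (95% interval -0.13 to 0.25, edgeR adjusted p = 0.700) and -0.00 without that library.

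The SLC1 carriers ASCT1 (*Slc1a4*) and ASCT2 (*Slc1a5*) exchange alanine, serine, cysteine and, for ASCT2, glutamine. *Slc1a5* (ENSMUSG00000001918, chromosome 7, 16781340 to 16798274) measured 58.1, 40.7 and 54.8 CPM in the controls and 58.9, 62.7 and 61.7 CPM in the knockdown samples. The groups did not overlap, but knockdown replicate 1 and Ctrl shRNA replicate 1 nearly met, and both were at 62.6 CPM, with the knockdown sample slightly lower, when the libraries were scaled without Ctrl shRNA replicate 2. The mean was 51.2 ± 9.21 and 61.1 ± 1.98 CPM (SD, n = 3 each), and the log2 fold change of 0.25 (95% interval -0.09 to 0.59, edgeR adjusted p = 0.400) became 0.10 without Ctrl shRNA replicate 2, its lowest library (edgeR adjusted p = 0.452). *Slc1a4* (ENSMUSG00000020142, chromosome 11, 20302180 to 20332713) measured 17.5, 17.9 and 14.9 CPM in the controls and 17.9, 16.1 and 15.8 CPM in the knockdown samples. The groups covered nearly the same range, and the log2 fold change of -0.01 (95% interval -0.29 to 0.27, edgeR adjusted p = 0.962) took the other sign when scaled by library size only (0.17) and without Ctrl shRNA replicate 2 (0.02).

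*Slc6a9* (ENSMUSG00000028542, chromosome 4, 117834506 to 117875198) encodes GlyT1, a sodium- and chloride-coupled glycine carrier. It measured 26.5, 17.2 and 19.5 CPM in the controls and 21.9, 20.3 and 21.9 CPM in the knockdown samples. The knockdown samples lay inside the range of the controls. Its log2 fold change was 0.02 (95% interval -0.39 to 0.43, edgeR adjusted p = 0.966), and -0.12 without Ctrl shRNA replicate 2 (edgeR adjusted p = 0.652). Among the 10 genes it was the only one whose exons overlap other annotated genes, *Ccdc24*, *B4galt2* and *Gm17114* on the opposite strand, and since no source says that strand was used in counting, its reads cannot be told apart from theirs over that stretch. Those genes held on average 2.33, 30.2 and 0 counts, against 606 for *Slc6a9*. For *Slc7a11*, *Slc7a1*, *Slc7a3*, *Slc38a1*, *Slc1a4*, *Slc1a5* and *Slc6a9*, none of the alternatives gave an adjusted p under 0.05, with the lowest 0.134 for *Slc7a3* (limma with quality weights) and the highest 0.998 for *Slc6a9*.

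**Figure D2:**
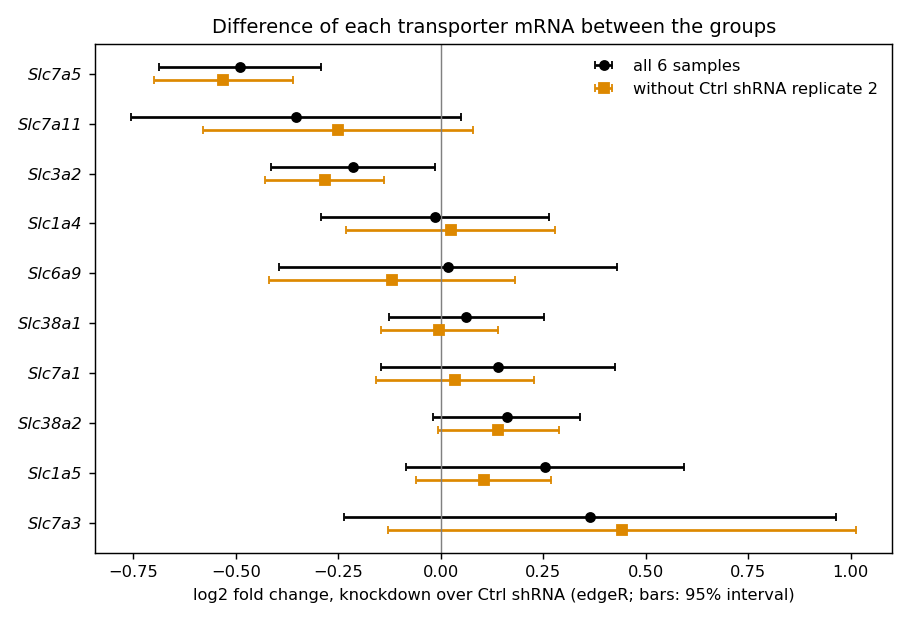
Log2 fold change of each transporter mRNA, knockdown over Ctrl shRNA (x axis), from edgeR with all 6 samples (circles) and without Ctrl shRNA replicate 2 (squares), with bars for the 95% interval. The intervals of *Slc7a5*, -0.69 to -0.29 and -0.70 to -0.36, and of *Slc3a2*, -0.41 to -0.01 and -0.43 to -0.14, lie below 0, and those of the other 8 genes include 0 in both fits.

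Levels were compared between genes on the authors' FPKM scale, which divides by gene length. For the 10 genes that length equals all annotated exon bases together, such as 3529 for *Slc3a2* and 13922 for *Slc7a11*. It need not be the length of the mRNA in these cells, so the order of genes below depends on the annotation. In the controls the heavy chain *Slc3a2* (45.7 ± 3.77 FPKM) and the light chain *Slc7a5* (46.1 ± 2.63 FPKM) were the highest and overlapped (SD, n = 3 here and below). *Slc38a2* followed at 32.8 ± 0.94 FPKM, without overlap with either. *Slc7a1* (14.4 ± 2.21 FPKM) and *Slc1a5* (12.3 ± 2.31 FPKM) overlapped each other, as did *Slc1a4* (4.28 ± 0.39 FPKM) and *Slc6a9* (4.11 ± 0.96 FPKM), with *Slc38a1* between these pairs at 6.81 ± 0.53 FPKM. *Slc7a11* (0.996 ± 0.12 FPKM) and *Slc7a3* (0.4999 ± 0.07 FPKM) were the lowest and did not overlap. In the knockdown samples the order at the top differed. *Slc3a2* stood at 39.4 ± 1.21 FPKM, *Slc38a2* at 36.7 ± 0.46 FPKM and *Slc7a5* at 32.9 ± 1.97 FPKM, and no 2 of these overlapped. From the fourth place on the order of the means was the same in both groups, with *Slc1a4* and *Slc6a9*, and *Slc7a11* and *Slc7a3*, overlapping in the knockdown.

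Because a ratio of 2 genes in 1 library does not depend on how the library was scaled, 5 pairs of related carriers were compared as log2 ratios of counts per length. *Slc7a5* to *Slc3a2* was 0.02, 0.08 and -0.05 in the controls and -0.31, -0.18 and -0.30 in the knockdown samples, a difference of -0.28. The ratio was thus near parity in the 3 controls, Ctrl shRNA replicate 2 included, a level that depends on the annotated gene lengths. Every knockdown sample was below the controls (two-sided exact permutation test, p = 0.1, Benjamini-Hochberg adjusted over the 5 pairs 0.25). *Slc7a1* to *Slc3a2*, used as a pair of which the first needs no heavy chain, was -1.54, -1.75 and -1.74 in the controls and -1.36, -1.36 and -1.23 in the knockdown samples. This ratio was higher by 0.36 with no overlap (exact permutation p = 0.1, adjusted 0.25), and by 0.32 without Ctrl shRNA replicate 2. The differences for *Slc7a11* to *Slc3a2*, *Slc38a1* to *Slc38a2* and *Slc1a4* to *Slc1a5* were -0.15, -0.10 and -0.28, and their groups overlapped (exact permutation p = 0.5, 0.3 and 0.3, adjusted 0.5, 0.375 and 0.375). Without Ctrl shRNA replicate 2 they were 0.02, -0.14 and -0.08, and *Slc38a1* to *Slc38a2* no longer overlapped, at -2.26 and -2.19 in the other controls and -2.42, -2.35 and -2.34 in the knockdown samples. The smallest p this design allows is 0.1, so none of the 5 ratios could have passed 0.05.

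**Figure D3:**
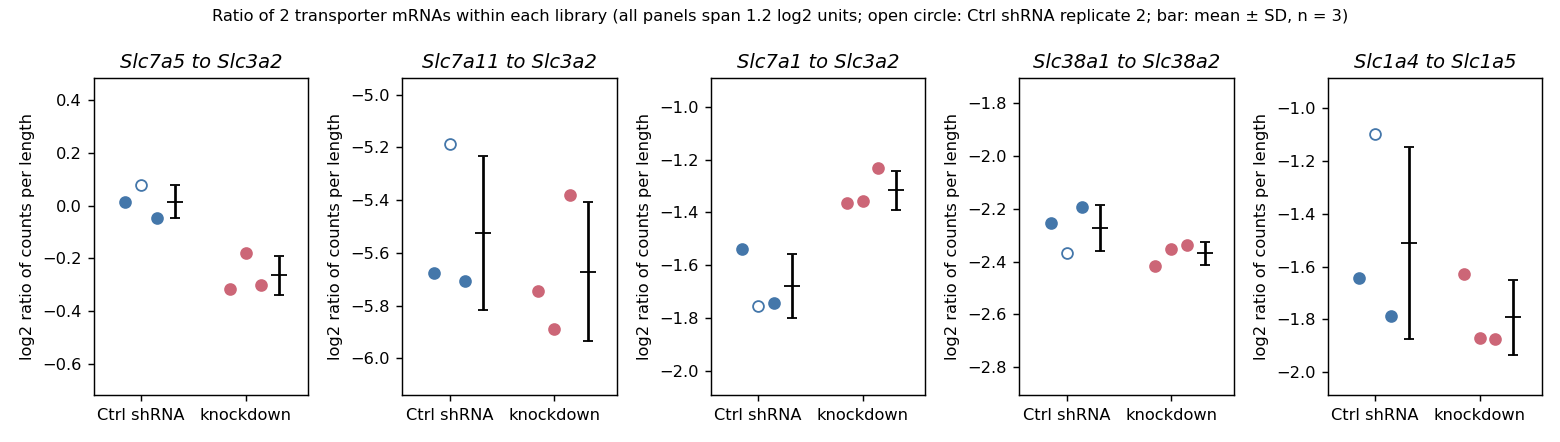
Log2 ratio of counts per length of 2 transporter genes within each library (y axis, all panels spanning the same number of log2 units), for the 3 Ctrl shRNA and 3 knockdown samples, with the open circle Ctrl shRNA replicate 2 and the bar the mean ± SD (n = 3). The groups are apart for *Slc7a5* to *Slc3a2* (-0.05 to 0.08 against -0.31 to -0.18) and *Slc7a1* to *Slc3a2*, and overlap in the other 3 panels.

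Summed over the 10 genes, the transporters held 1077, 940 and 1006 CPM in the controls and 1003, 999 and 999 CPM in the knockdown samples. The means, 1008 ± 68.5 and 1000 ± 2.35 CPM (SD, n = 3 each), differed by less than the spread of the controls. Within that sum, as shares of counts, *Slc7a5* made up 16.9% ± 0.38 in the controls and 12.1% ± 0.74 in the knockdown, and *Slc3a2* 16.0% ± 0.42 and 13.9% ± 0.40. *Slc38a2* made up 28.8% ± 1.40 and 32.4% ± 0.33, and *Slc7a1* 16.3% ± 1.301 and 18.2% ± 0.47 (SD, n = 3 for each share). These shares describe the composition only and were not tested.

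The genes whose log2 CPM over the 6 samples was most like that of *Slc3a2* were *Acox2*, *Lgi3*, *Gm14122*, *Irx3* and *Prnp*, with Pearson's r of 0.998, 0.992, 0.987, 0.986 and 0.984. All 6 points share the depth and the 2 groups, and Ctrl shRNA replicate 2 is among them, so the values are a description. Among the members, *Slc7a5* had an r of 0.90 with *Slc3a2* over the 6 samples and *Slc38a2* one of -0.72.

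The rest of the amino acid carriers were examined as a list of 44 genes of the SLC1, SLC3, SLC6, SLC7, SLC16, SLC36, SLC38 and SLC43 families and the cystine exporter of lysosomes, *Ctns*. Of these, 18 had enough counts to be tested, while the 26 others did not pass the count filter. With all 6 samples 10 had a log2 fold change above 0 and 8 below, and the median was 0.11 against -0.01 over all genes, a value that ran from -0.01 without Ctrl shRNA replicate 3 to 0.18 without Ctrl shRNA replicate 1, and 0 were called in either direction by edgeR. At an unadjusted p under 0.05, 2 were higher (*Slc7a6* and *Slc6a17*, both outside the rule for naming genes) and 0 lower, beside 7.47% higher and 6.65% lower of all genes tested. Without Ctrl shRNA replicate 2, 0 of the 19 then tested were called by edgeR (3 higher and 0 lower at an unadjusted p under 0.05, beside 9.54% and 10.3% of all genes), with a median of 0.05. DESeq2 with all samples called 0 (1.55% of all genes higher and 0.958% lower), while limma's sample quality weights called 3 higher and 0 lower (8.67% and 6.34% of all genes). The knockdown samples lay above all controls in 5 of the 18 (*Slc7a2*, *Slc7a6*, *Slc38a7*, *Slc6a6* and *Slc6a17*, named after their values were seen) and below all of them in 0, beside 14.7% above and 10.7% below over all genes tested. *Slc7a6*, named after its values were seen, encodes a second light chain of the heavy chain, y+LAT2, which exchanges arginine and glutamine. It measured 139, 108 and 130 CPM in the controls and 152, 165 and 155 CPM in the knockdown samples, so that Ctrl shRNA replicate 2 was its lowest library. Its log2 fold change was 0.32 (95% interval 0.06 to 0.59, edgeR adjusted p = 0.339), and 0.22 without that library (edgeR adjusted p = 0.159), with an adjusted p from 0.0254 to 0.675 over the 17 alternatives.

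Genes that sense amino acid shortage or respond to it were examined as a list of 20, all of which were tested. The list is not independent of earlier results of these data. With all 6 samples 14 had a log2 fold change below 0 and 6 above, and the median was -0.34. By edgeR 0 were called in either direction, against 11 lower and 2 higher at an unadjusted p under 0.05, where 6.65% of all genes were lower and 7.47% higher. The knockdown samples lay below all controls in 12 of the 20 and above all controls in 2 (*Gcn1* and *Eif2ak3*, named after their values were seen), beside 10.7% below and 14.7% above over all genes. Without Ctrl shRNA replicate 2, 6 genes fell and 0 rose by the adjusted edgeR test (0.675% and 1.11% of all genes), with a median of -0.32. DESeq2 with all samples called 6 lower and 0 higher (0.958% and 1.55% of all genes), not all the same genes. It called *Psat1*, named after its values were seen (DESeq2 adjusted p = 0.0054), and not *Trib3* (DESeq2 adjusted p = 0.092). DESeq2 without that library called 10 lower and 1 higher (2.65% and 3.93% of all genes), and limma's sample quality weights called 11 lower and 2 higher (6.34% and 8.67% of all genes).

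*Atf4* itself, the regulator that these outputs share, measured 201, 240 and 208 CPM in the controls and 198, 200 and 183 CPM in the knockdown samples. Ctrl shRNA replicate 1 and knockdown replicate 2 were nearly level, though the groups did not overlap, and the log2 fold change was -0.16 (edgeR adjusted p = 0.421) and -0.09 without Ctrl shRNA replicate 2 (edgeR adjusted p = 0.505), with an adjusted p from 0.208 to 0.953 over the alternatives. Over these alternatives the log2 fold change ran from -0.21 to 0.03, so its sign was not fixed. ATF4 is controlled mainly through translation, which these data do not measure. *Chac1*, which encodes an enzyme that degrades glutathione, measured 19.96, 16.6 and 19.5 CPM in the controls and 10.1, 11.1 and 8.53 CPM in the knockdown samples. Every knockdown sample was at a lower level than every control, and the log2 fold change was -0.92 (edgeR adjusted p = 0.155). *Vldlr*, a lipoprotein receptor gene, measured 37.1, 33.8 and 41.1 CPM in the controls and 16.9, 17.7 and 19.1 CPM in the knockdown samples, without overlap, with a log2 fold change of -1.06 (edgeR adjusted p = 0.0575).

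*Asns* encodes asparagine synthetase, the textbook output of this response. It measured 158, 254 and 164 CPM in the controls and 112, 120 and 113 CPM in the knockdown samples. Ctrl shRNA replicate 2 was far above the other controls here, and the log2 fold change was -0.74 with it (edgeR adjusted p = 0.288) and -0.49 without it. *Nupr1*, a stress-induced chromatin protein gene, showed the same with 26.2, 71.4 and 31.0 CPM in the controls and 18.01, 15.4 and 15.4 CPM in the knockdown samples, and log2 fold changes of -1.39 (edgeR adjusted p = 0.302) and -0.82. *Trib3*, which encodes a pseudokinase that inhibits ATF4, and *Stc2*, which encodes a secreted glycoprotein, had log2 fold changes of -0.55 and -0.65 with all samples and -0.65 and -0.74 without Ctrl shRNA replicate 2. Without that library the edgeR adjusted p was 0.00110 for *Vldlr*, 0.0115 for *Chac1*, 0.0142 for both *Nupr1* and *Asns*, 0.0276 for *Stc2* and 0.0419 for *Trib3*. All 6 kept a negative sign under each of the 17 alternatives, 3 to 5 of which called them, with the largest adjusted p between 0.637 and 0.691. Of the 19 genes on this list with a RefSeq promoter window, 5 held the element TGATGNAA (*Asns*, *Atf3*, *Chac1*, *Nupr1* and *Vldlr*), where 244 of 10450 tested genes with a window (2.33%) did. The list was made of known regulators and outputs of this response, so its share is not independent of that choice. The windows of *Stc2* and *Trib3* held no match.

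**Figure D4:**
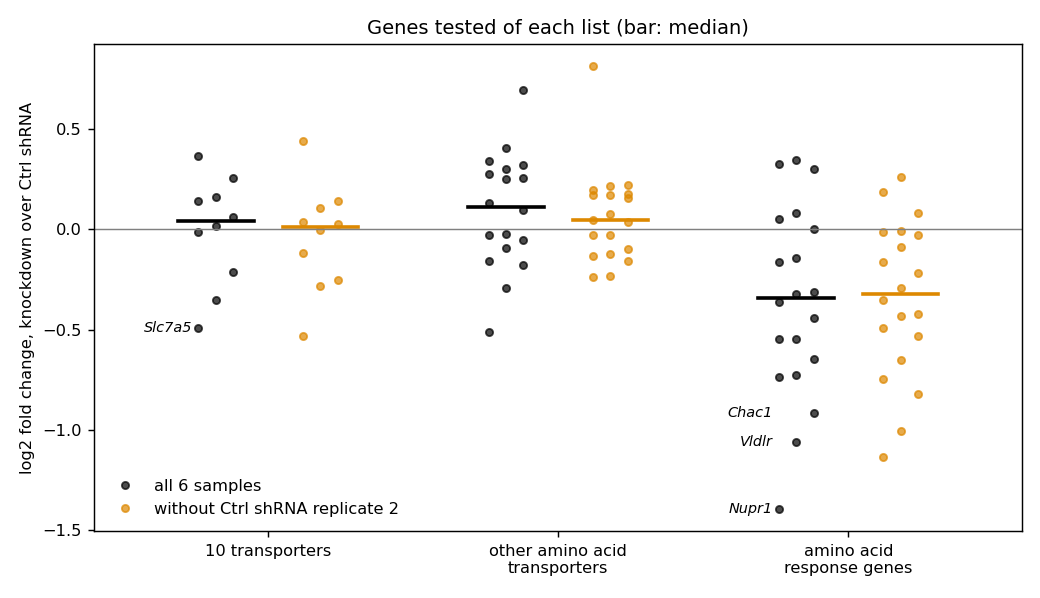
Log2 fold change, knockdown over Ctrl shRNA (y axis), of every tested gene among the 10 transporters, the other amino acid transporters and the amino acid response genes, from edgeR with all 6 samples (black) and without Ctrl shRNA replicate 2 (orange), with bars for the medians. The medians with all samples are 0.04, 0.11 and -0.34, and *Slc7a5* is the lowest of the 10 transporters in both fits.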

How the data were processed

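Paired-end libraries of 6 MLE12 samples, 3 in each group, were made with the NEBNext Ultra kit. The authors deposited whole-number read counts per gene, without normalization, and FPKM values. The submitters' processing notes name HISAT2 2.0.5, StringTie 1.3.3b, featureCounts 1.5.0-p3 and the build mm10. Their parameters and use of strand are not given in the sources used here, and the labels also name an assembly by Trinity. The deposited FPKM values equal counts per length over a library size of 0.716 to 1.08 times the total count. Of the 54532 genes, 53499 had the same coordinates in GENCODE M21 (GRCm38).

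Counts were filtered with filterByExpr, scaled with TMM and tested with the quasi-likelihood test of edgeR 4.0.16 in R 4.3.3, without covariates, at a Benjamini-Hochberg adjusted p of 0.05 over all genes tested. The intervals are 95% intervals of that fit. Ratios were compared by exact permutation in scipy 1.17.1. The 17 alternatives were a block for the replicate number, the omission of every library singly, scaling by median-of-ratios size factors or by library size alone, count filters that were absent or stricter (10 or more in all samples), DESeq2 1.42.0 with and without Ctrl shRNA replicate 2, limma 3.58.1 with sample quality weights, and its fits of log2(FPKM + 1) and log2(FPKM + 0.1) for genes with an FPKM of at least 1 in 3 samples, the former also without the filter. The members and lists were chosen with earlier results of these data known. All members were named, and from the other lists *Atf4* and up to 8 genes past the threshold with all samples or without Ctrl shRNA replicate 2. A gene of these lists named otherwise for its level or fold change is said to be so. The 5 genes most like *Slc3a2* were taken by Pearson's r. 

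Tested on simulated counts with 200 genes changed 2-fold, edgeR recovered 17 (8.5%) of them with 3 false calls among 14966 genes at the spread of all 6 samples, and 138 (69%) with 21 false calls among 15381 genes at the spread without Ctrl shRNA replicate 2. Set beside the 17 and 138 genes recovered, the false calls exceeded the share of 0.05 that the threshold aims at. All simulated libraries had the same spread for a gene, so a single library standing apart was not simulated. Chi-square statistics of the pairs within each group exceeded what sampling noise gives, and 0 sample columns went unused.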

Additional observations from a re-analysis of the deposited data

How the results depend on the processing

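Of 166 values of members under the alternatives, 148 kept their direction and side of the threshold, 7 passed it only under the alternative, and 11 changed sign. The sign changed for *Slc1a4* (0.17 with library size only, 0.031 with DESeq2 without Ctrl shRNA replicate 2, 0.13 with quality weights, and -0.11 to 0.024 with 1 library left out), for *Slc6a9* (-0.11 with DESeq2 without Ctrl shRNA replicate 2, and -0.12 to 0.22 with 1 library left out) and for *Slc38a1* (-0.0037 to 0.093 with 1 library left out). With 1 library left out, the log2 fold change was 0.10 to 0.36 for *Slc1a5*, -0.48 to -0.25 for *Slc7a11*, -0.28 to -0.17 for *Slc3a2* and 0.14 to 0.18 for *Slc38a2*. Among the ratios, that of *Slc7a11* to *Slc3a2* changed sign (-0.29 to 0.021 on the log2 scale with 1 library left out). Scaling by library size only moved the median log2 fold change of all genes from -0.01 to 0.16 and that of the members to 0.20, with *Slc7a5* at -0.32 and *Slc3a2* at -0.06.

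Over all genes, 9 were called higher and 1 lower in edgeR with all samples. The numbers were 1 and 0 with library size only, 218 and 135 with DESeq2, 490 and 330 with DESeq2 without Ctrl shRNA replicate 2, 1327 and 971 with quality weights, and 0 to 175 and 0 to 106 with 1 library left out, the highest without Ctrl shRNA replicate 2, as for the lists below. Without a count filter 3 genes were lower, and 3 with limma on log2(FPKM + 1) or log2(FPKM + 0.1). Members called lower numbered 1 with DESeq2, 2 with DESeq2 without Ctrl shRNA replicate 2, 2 with quality weights and 0 to 1 with 1 library left out. Members called higher numbered 1 with quality weights, which also called 3 other transporters higher. Response genes called lower numbered 1 without a filter, 6 with DESeq2, 10 with DESeq2 without Ctrl shRNA replicate 2, 11 with quality weights and 0 to 6 with 1 library left out, and those called higher 1 with DESeq2 without Ctrl shRNA replicate 2 and 2 with quality weights. The log2 fold change of *Idh3a* was -0.84 with DESeq2, -0.59 with DESeq2 without Ctrl shRNA replicate 2 and -0.67 with quality weights, each past the threshold, and -0.997 to -0.60 with 1 library left out. For *Slc25a1* these were -0.62, -0.66, -0.68 and -0.66 to -0.57. The cause of these changes was not tested, but the biological coefficient of variation was 0.263 with all samples and 0.102 without Ctrl shRNA replicate 2.

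Samples with the same replicate number did not deviate together from their group means (r of -0.21, -0.16 and 0.02). With 3 samples per group such deviations depend on each other, so these values cannot decide whether the numbers pair the samples. The fit with the replicate number as a block called 0 genes higher and 0 lower, and the adjusted p of *Slc7a5* in edgeR was 0.576. In the block fit 687 genes were higher and 446 lower at an unadjusted p under 0.05. *Slc7a11* and *Slc7a3* reached the FPKM minimum in fewer than 3 samples and have no value in the filtered FPKM fits. *Slc38a3* and *Slc6a15* have no adjusted p in DESeq2.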

Other observations

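After the values were seen, the mRNAs of the 6 light chains that can pair with the heavy chain (*Slc7a5*, *Slc7a6*, *Slc7a7*, *Slc7a8*, *Slc7a10* and *Slc7a11*) were set against *Slc3a2* on the authors' FPKM scale, as a description without a test. *Slc7a6* measured 30.6, 23.5 and 28.6 FPKM in the controls and 33.3, 36.1 and 34.1 FPKM in the knockdown samples. Of the summed light chain level, *Slc7a5* made up 60.8% ± 1.81 in the controls and 47.4% ± 1.10 in the knockdown, and *Slc7a6* 36.2% ± 2.05 and 49.8% ± 0.81 (SD, n = 3 each). The size of these shares depends on the annotated gene lengths. Neither share overlapped between the groups, with Ctrl shRNA replicate 2 at the far end of the controls in both (62.9% for *Slc7a5* and 33.9% for *Slc7a6*). These genes made up nearly all of the sum, so a lower share of *Slc7a5* goes with a higher share of *Slc7a6*, and the separations are not independent. The sum of the 6 was 75.9 ± 6.17 FPKM in the controls and 69.3 ± 3.27 FPKM in the knockdown. Divided by *Slc3a2* in the same library, it was 1.69, 1.68 and 1.62 in the controls and 1.67, 1.85 and 1.76 in the knockdown samples, and the groups overlapped. *Slc7a8* and *Slc7a10* were at or near 0 in all libraries.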
